A study of Mus musculus with 12 samples.

Results

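The expression of 10 genes that mark classes of cortical interneurons was followed in mice of 3 Mir137 genotypes. Mir137 encodes miR-137, a microRNA abundant in the brain. They are the rows of the deposited tables named Sst, Npy, Vip, Cck, Pvalb, Cort, Tac2, Crh, Nos1 and Chodl, 10 of 23951 rows in each table, and all 10 names were found. They were chosen by name, with earlier results of these data known. RNA came from dissected cortex of C57BL/6 mice that were wild type (WT), heterozygous (labelled miR-137/+, here Het) or knockout (labelled miR-137 KO, here KO), with 4 libraries per genotype and 12 in all. The sources used here do not say how the allele was made, which age and sex the animals had, or whether animals were pooled. Each of 3 pairwise tables gives 1 RPKM value (reads per kilobase of transcript, scaled to library size) per genotype, so no spread between libraries can be printed, and sequencing depth is unknown. Titles number the libraries in pairs, and no label ties a library to its own animal. The authors' p-values therefore reflect the spread among libraries, part of which may be technical. Genes are called higher or lower, and said to rise or fall, at an adjusted p (q) under 0.05 in the authors' deposited table. Log2 differences compare log2(RPKM + 1) and so shrink the changes of genes with low values. Counts for further gene lists hold only genes of at least 1 RPKM, whereas the shares of all tested genes called have no such minimum.

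Inhibitory interneurons of the cortex release GABA and fall into classes named for a peptide or a calcium-binding protein. Fast-spiking basket and chandelier cells contain parvalbumin, Martinotti cells contain somatostatin, and cells of the caudal ganglionic eminence include those with vasoactive intestinal peptide and those with cholecystokinin. A rare class of long-range cells combines somatostatin, neuropeptide Y, neuronal nitric oxide synthase and chondrolectin. The peptides are cut from precursors in dense-core vesicles and act through G-protein-coupled receptors on neighbouring cells. Several of these genes are also active outside cortical interneurons: Cck in many cortical pyramidal cells, and Sst, Npy and Nos1 in interneurons of the striatum.

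The microRNA of the mutated gene pairs with messenger RNAs through bases 2 to 8 of its mature strand, the seed, shown here in capitals because letters complementary to it were searched for in the 10 genes.
miR-137-3p (RefSeq, GRCm38.p6, chr3:118433901-118433923, plus strand): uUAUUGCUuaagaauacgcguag
The longest annotated 3' UTR of each gene in GENCODE M21 was searched for the matching letters AGCAATA or GCAATAA (AGCAATAA holds both), on the transcript strand. None of the 10 held a match. These 3' UTRs ran from 156 bases in Sst to 5027 in Nos1. Among genes with a 3' UTR of similar length, 2.96% held a match at the length of Sst and 40.4% at the length of Nos1. No match says only that these letters are not in this window.

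A second set of letters is shown because Sst is the textbook gene of the cyclic AMP response element, the site through which cyclic AMP drives transcription by CREB, and because the series title names Pde10a, an enzyme that breaks down cyclic AMP. RefSeq promoter windows, from 250 bases before to 50 after a start site, were found for 9 of the 10 genes. Crh was not matched. The full element TGACGTCA, searched on both strands, stood in 1.79% of 32851 promoter windows and in 1 of the 9 genes, Sst. The core TGACG, which the full element contains on both strands, stood in 20.8% of windows and in 5 of the 9 genes: Sst, Vip, Cck, Cort and Nos1. The windows around the matches follow, each on the strand of its gene and with the match in capitals (CGTCA is the core read from the other strand).
Sst (GRCm38.p6, chr16:23890875-23890902, minus strand): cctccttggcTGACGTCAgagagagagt
Vip (GRCm38.p6, chr10:5639129-5639153, plus strand): atcactactgTGACGtctttcgggg
Cck (GRCm38.p6, chr9:121495727-121495751, minus strand): tgctggactgCGTCAgcactgggta
Cort (GRCm38.p6, chr4:149126767-149126791, minus strand): ccggcttgtgCGTCAccgcgtgagt
Nos1 (GRCm38.p6, chr5:117866699-117866723, plus strand): accagccatgCGTCAggcttggctt
The match began at position -48 from the annotated start in Sst, at -47 in Cck and at -79 in Vip. Neither Npy nor Pvalb, which are described next with Sst, held the core in its window.

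Of these 10 genes, 3 passed the test in at least 1 comparison, and none passed in both Het and KO against WT. Npy rose and Sst fell in Het, and Pvalb fell in KO. The genes of the cholecystokinin, vasoactive intestinal peptide, cortistatin, tachykinin 2, corticotropin-releasing hormone and nitric oxide synthase rows had a q above 0.05 in every table. Against WT, 2 of 9 tested members were called in Het, 1 higher and 1 lower, where 9.00% of all tested genes were called (3.95% higher and 5.06% lower). In KO 1 of 9 was called, lower, where 14.4% of all tested genes were called (6.72% higher and 7.68% lower). Counts this small cannot be set apart from that background. Between KO and Het 0 of 10 were called by the authors' test, where 1.87% of all tested genes were (0.917% higher and 0.953% lower), and 2 members had an unadjusted p under 0.05, as 9.89% of all measured genes did. Against WT that p was reached by 2 members in Het and 3 in KO, and by 19.5% and 26.6% of all measured genes. At q below 0.01 the members called were again 2 in Het, 1 in KO and 0 between the mutants, beside 5.50%, 8.12% and 1.14% of all tested genes. The median log2 difference of the 9 members with at least 1 RPKM was -0.12 in Het and -0.05 in KO, where the medians over all tested genes of that level were 0.01 and 0.01. Bulk RNA cannot tell fewer cells of a class from less RNA per cell.

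**Figure D1:**
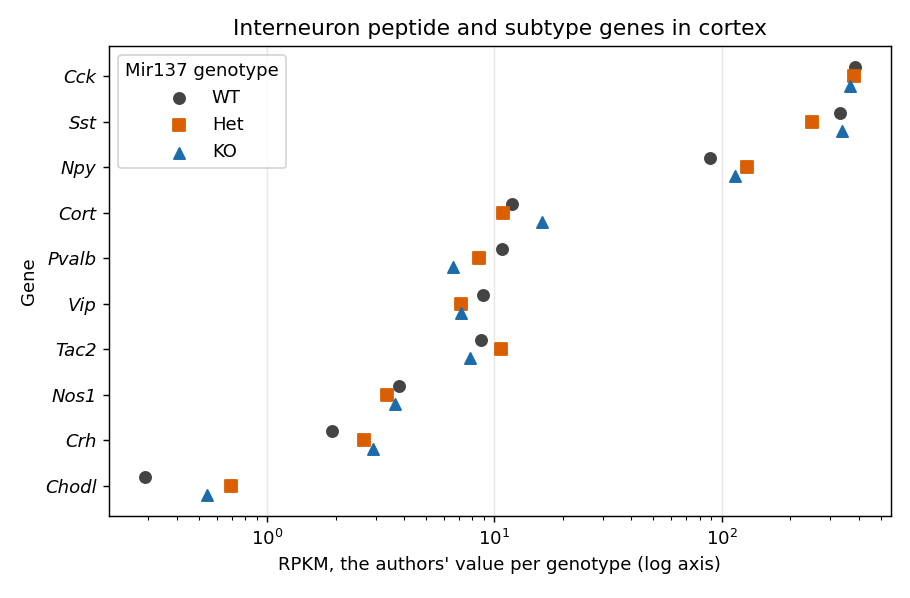
RPKM of each gene on a log axis, 1 point per genotype (the authors' value, pooled over 4 libraries, so no error bar can be drawn), with WT and Het from the Het against WT table and KO from the KO against WT table. Cck, Sst and Npy lie far above the others in every genotype, Npy is higher in Het (130) than in WT (88.7), and Pvalb is lower in KO (6.58) than in WT (10.9).

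The highest and lowest of the 10 levels in WT differed by a wide margin. Cck, the precursor of cholecystokinin, was listed at 386 RPKM in WT, above 99.4% of all rows, and Sst, the precursor of somatostatin, at 330. Npy, the precursor of neuropeptide Y, followed at 88.7. A wide gap separated these from Cort at 12.0, Pvalb at 10.9, Vip at 8.91 and Tac2 at 8.74 RPKM. Nos1 at 3.81, Crh at 1.92 and Chodl at 0.289 were lowest. Cck, Sst, Npy and Cort held the first 4 places in that order in all 3 genotypes. Pvalb stood at place 5 in WT, 6 in Het and 7 in KO. Tac2 stood at place 7 in WT and 5 in both mutants. With 1 value per genotype, neighbours in this order cannot be told apart beyond their spread. The 10 values summed to 852 RPKM in WT, 804 in Het and 865 in KO.

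Somatostatin is the peptide of Martinotti cells, whose axons inhibit the distal dendrites of pyramidal cells. In the authors' deposited table of Het against WT, Sst stood at 330 RPKM (WT) and 250 in Het. It fell by 24.5% (log2 difference -0.40, q = 0.00841). A call that also asks for an absolute log2 difference of at least 0.5, met by 4.73% of all tested genes, leaves Sst out. The table of KO and WT gave 331 RPKM in WT and 338 in KO (q = 0.919). KO and WT thus lay close together, and Het stood below both. The direct comparison gave 251 RPKM in Het and 339 in KO, a log2 difference of 0.43, and missed the threshold in the authors' deposited table (q = 0.0513). With the p-values of all 3 tables adjusted together it passed (q = 0.0179), as 3.09% of all tested genes did, so whether Het and KO differ in Sst depends on the adjustment.

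Cort encodes cortistatin, a peptide close to somatostatin that shares its receptors and is made by part of the same interneurons. It was listed at 12.0 RPKM in WT and 10.9 in Het (q = 0.900 in the authors' deposited table). Its value in KO was 16.2 RPKM (q = 0.225 against WT in the authors' deposited table). KO against Het gave a log2 difference of 0.52 (unadjusted p = 0.0284, q = 0.405 in the authors' deposited table). Sst exceeded Cort 27.6-fold in WT, 22.8-fold in Het and 20.9-fold in KO on the RPKM scale.

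Neuropeptide Y is made by neurogliaform cells and by part of the somatostatin class, and restrains transmitter release. The authors' deposited table of Het against WT listed Npy at 88.7 RPKM in WT and 130 in Het. It rose 1.46-fold (log2 difference 0.54), at q = 0.00135. That is the smallest q of the Het and WT comparison, shared by every gene at its smallest p of 5e-05, so it does not rank Npy among them. In KO it was listed at 114 RPKM against 88.7 in WT, a log2 difference of 0.36 that missed the threshold (q = 0.0586 in the authors' deposited table). Het and KO both stood above WT, and the difference between them, 130 against 114 RPKM, did not pass (q = 0.779 in the authors' deposited table). Npy amounted to 26.8% of the Sst level in WT, 51.9% in Het and 33.7% in KO, a ratio for which no test exists in these tables.

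Markers of cell types from outside the cortex were also read in these mutants. Their lists were chosen with earlier results of these data known, so the shares of all tested genes beside them are no test. All 12 of a list of striatal projection neuron markers rose in Het and all 12 in KO. Their summed level went from 77.8 RPKM in WT to 422 in Het and 453 in KO, with none of them at 0 in any genotype. Of all tested genes, 3.95% rose in Het and 6.72% in KO. Cholinergic interneuron markers, which the striatum holds in abundance, summed to 0.557 RPKM in WT, 5.33 in Het and 3.98 in KO over 5 genes, again with none at 0. Chat, their defining enzyme, was listed at 0.0282 RPKM in WT, 0.847 in Het and 0.337 in KO, below the 1 RPKM counted as measured. Choroid plexus markers moved the other way, with 9 of 9 measured members lower in both mutants. Their summed levels were 2076, 294 and 91.0 RPKM in WT, Het and KO. Of all tested genes, 5.06% fell in Het and 7.68% in KO. Hippocampal neuron markers were called in both directions. In Het 4 of 9 were higher and 2 lower, and in KO 1 of 9 was higher and 2 lower. Over all tested genes 9.00% were called in Het and 14.4% in KO. The sums of these markers were 446, 672 and 623 RPKM, but most of the genes did not follow the sum in KO. There 7 of 9 had a negative log2 difference (median -0.08), against 4 of 9 in Het (median 0.24). Prox1 and Calb1 of this list are also on the interneuron lists. The part of these cell types in the values of Npy, Sst and Pvalb was not tested. Markers of cortical glutamatergic neurons were present in every genotype, as the label of the tissue requires, with 9 of 9 measured and summed levels of 2292, 2156 and 2060 RPKM. Of these 9, 2 rose and 1 fell in Het, and 1 rose and 1 fell in KO. The shares of all tested genes called were again 9.00% and 14.4%. The row of the targeted gene, Mir137, held 0 for each genotype, so it checks none of the labels.

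Neuronal nitric oxide synthase, encoded by Nos1, is strongest in the rare long-range class. It was listed at 3.81 RPKM in WT, 3.38 in Het and 3.66 in KO, with q = 0.663 for Het and q = 0.876 for KO in the authors' deposited tables. The 3 values lay within a narrow band. Gm26995, an antisense gene in GENCODE M21, overlaps Nos1, as does Gm37028 on its own strand. Whether counting used strand is not stated, so reads of these genes and Nos1 cannot be told apart. Chodl, the chondrolectin gene that singles out the same long-range cells, was listed at 0.289 RPKM in WT, 0.691 in Het and 0.544 in KO. Both mutant values were higher, but all 3 lay below 1 RPKM and the authors' tables hold no test of Chodl against WT. KO against Het gave q = 0.885 in the authors' deposited table.

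Parvalbumin is the calcium buffer of fast-spiking cells. The authors' deposited table for KO and WT listed Pvalb at 10.9 and 6.58 RPKM in WT and KO. It fell by 39.5% (log2 difference -0.65, q = 0.00831). Het lay between them at 8.52 RPKM, a log2 difference from WT of -0.32 (q = 0.423 in the authors' deposited table). The step from Het to KO, 8.58 to 6.61 RPKM, did not pass either (q = 0.647 in the authors' deposited table), so a difference between the mutants was not shown.

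Vasoactive intestinal peptide marks interneurons that mainly inhibit other interneurons. Vip was listed at 8.91 RPKM in WT, 7.10 in Het and 7.11 in KO. Both mutants were lower by nearly the same amount, log2 differences of -0.29 and -0.29, and neither passed (q = 0.330 for Het and q = 0.227 for KO in the authors' deposited tables). Cck, the precursor of cholecystokinin, was listed at similar levels in all genotypes, at 386 RPKM in WT, 381 in Het and 368 in KO (q = 0.968 and 0.786 in the authors' deposited tables). Since Cck is active in many pyramidal cells as well as in basket cells, its level does not follow the interneurons alone.

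Tac2, the precursor of neurokinin B, stood at 8.74 RPKM in WT and 10.7 in Het (q = 0.623 in the authors' deposited table). KO was listed at 7.77 RPKM (q = 0.724 in the authors' deposited table), so the mutants lay on either side of WT. Crh, the precursor of corticotropin-releasing hormone, was listed at 1.92 RPKM in WT, 2.66 in Het and 2.93 in KO. Its values stood in the order of genotypes, but neither difference from WT passed (q = 0.464 for Het and q = 0.135 for KO in the authors' deposited tables). For Crh in KO the log2 difference was 0.43, at an unadjusted p of 0.0303.

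**Figure D2:**
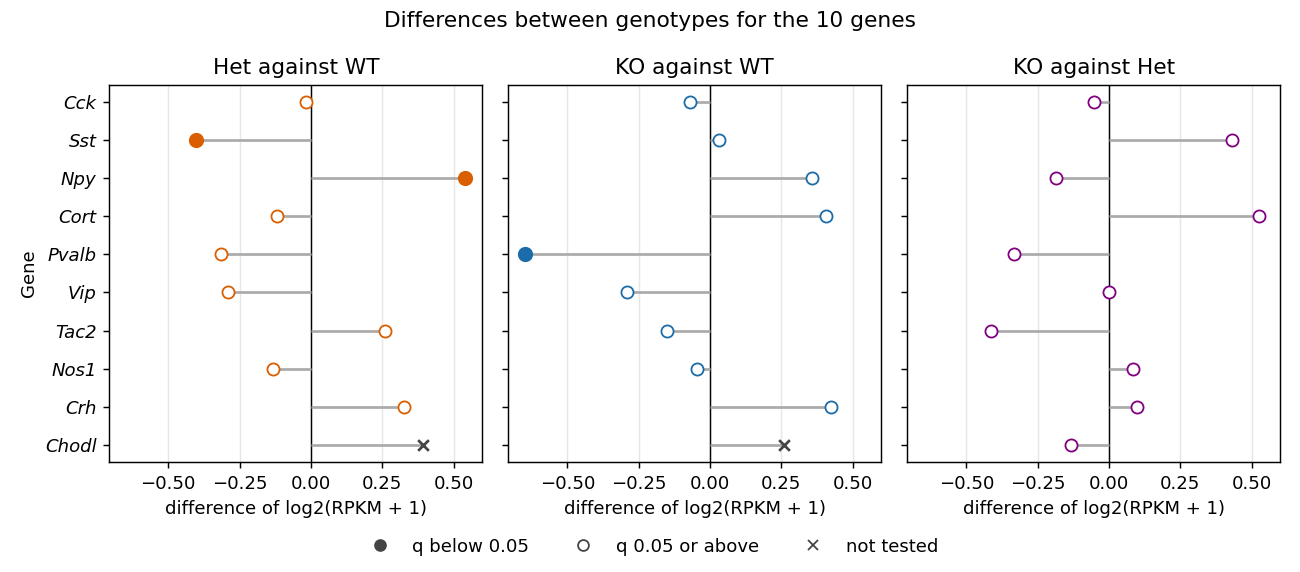
Difference of log2(RPKM + 1) for each gene in the 3 comparisons, with filled points for q below 0.05 in the authors' tables, open points for q of 0.05 or above and crosses where the table holds no test. The filled points are Npy (0.54) and Sst (-0.40) in Het against WT and Pvalb (-0.65) in KO against WT, and KO against Het has none.

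The receptors of these peptides were read next, from a list of 19 genes of which 12 reached 1 RPKM. The list was fixed by name, with earlier results of these data known. In Het 4 rose and 2 fell, and in KO 2 rose and 2 fell, beside 9.00% and 14.4% of all tested genes called. The medians of the list, 0.00 in Het and 0.01 in KO, lay at the medians of all genes because members moved in both directions. Sstr2, a somatostatin receptor of cortical neurons, rose in Het from 17.8 to 29.3 RPKM (q = 0.00135 in the authors' deposited table). In KO it was listed at 17.4 RPKM against 17.8 in WT (q = 0.945 in the authors' deposited table), and KO against Het gave 17.5 against 29.5 RPKM (q = 0.00517 in the authors' deposited table). Het therefore stood apart from both other genotypes for Sstr2, upward, where Sst itself was lowest.

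Npy2r, a presynaptic neuropeptide Y receptor, fell in KO from 19.8 to 9.59 RPKM, 2.06-fold lower (q = 0.000987 in the authors' deposited table). Its Het value of 15.8 RPKM did not pass against WT (q = 0.0911 in the authors' deposited table), and KO lay below Het (q = 0.00517 in the authors' deposited table). The other Y receptors with at least 1 RPKM, Npy1r and Npy5r, lie outside the naming rule and are given to complete the family. They had q values of 0.314 and 0.946 in Het and 0.814 and 0.633 in KO in the authors' deposited tables. Tacr3, the receptor of neurokinin B, fell in Het from 1.89 to 0.746 RPKM (q = 0.00135 in the authors' deposited table). In KO Tacr3 was listed at 1.90 RPKM, level with WT, and KO against Het differed 2.55-fold (q = 0.00517 in the authors' deposited table).

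Crhr1, the main receptor of corticotropin-releasing hormone in the forebrain, rose in both mutants, from 4.78 RPKM in WT to 7.08 in Het (q = 0.0251) and 8.11 in KO (q = 0.000987) in the authors' deposited tables. Crhbp, a secreted protein that binds the same hormone and marks part of the somatostatin class, fell in both, from 11.7 RPKM to 6.23 in Het (q = 0.00135) and 8.08 in KO (q = 0.0150) in the authors' deposited tables. The ligand gene Crh, given above, passed in neither. Outside the naming rule and chosen after their values were seen, the remaining receptors that passed were Sstr4, lower in both mutants, Tacr1, higher in both, and Cckbr, higher in Het. Tacr1 reached 1 RPKM only in the mutants (0.794 RPKM in WT, 1.67 in Het and 1.68 in KO). For Sstr4 the authors' deposited tables gave 9.76 RPKM in WT, 6.39 in Het (q = 0.0303) and 6.23 in KO (q = 0.00831). Vipr1, a receptor of vasoactive intestinal peptide that also lies outside the rule, stood between 2.82 and 3.06 RPKM in the 3 genotypes (q = 0.969 and 0.808 in the authors' deposited tables).

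**Figure D3:**
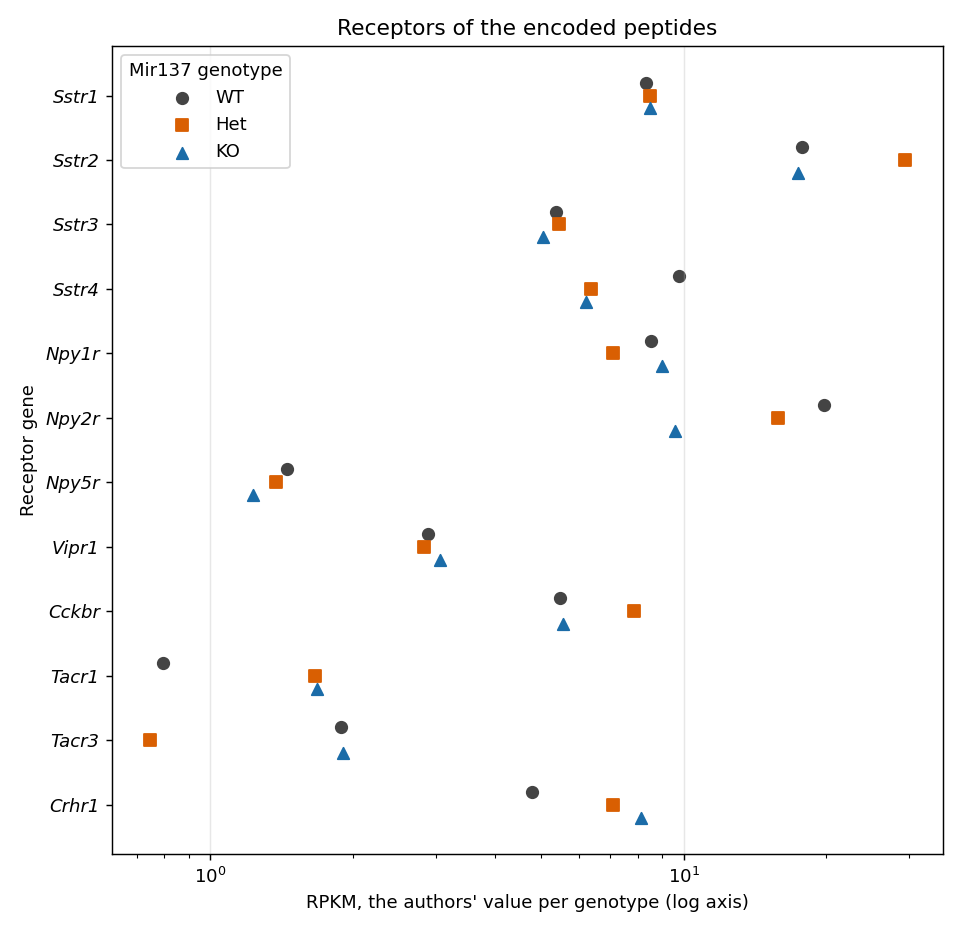
RPKM on a log axis of the 12 receptor genes that reached 1 RPKM, 1 point per genotype without error bars, from the same tables as for the peptide genes. Het stands alone for Sstr2 (29.3) and Tacr3 (0.746), KO stands lowest for Npy2r (9.59), and both mutants lie above WT (4.78) for Crhr1.

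Genes of GABA synthesis, vesicle loading and uptake are shared by the interneuron classes. None of 6 was called in any comparison by the authors' test, and 1 of 6 had an unadjusted p under 0.05 in each, where 19.5% of all measured genes did in Het, 26.6% in KO and 9.89% between the mutants. The medians were -0.03 in Het and -0.14 in KO. Gad2, a GABA-synthesizing enzyme, was listed at 39.9 RPKM in WT, 44.3 in Het and 37.2 in KO. Slc32a1, the vesicular GABA transporter, was listed at 25.6, 31.3 and 31.2 RPKM (q = 0.106 for Het and q = 0.124 for KO in the authors' deposited tables). Slc6a11, a GABA uptake carrier, was listed at 65.2 RPKM in WT, 56.5 in Het and 57.6 in KO (q = 0.285 for Het and q = 0.349 for KO in the authors' deposited tables). These genes are active in striatal as well as cortical GABA neurons.

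Genes of interneuron origin, all transcription factors except Adarb2, were called in 3 of 19 measured members in Het, 2 higher and 1 lower. Over all tested genes 9.00% were called there. In KO 0 of 17 were called by the authors' test, beside 14.4% of all tested genes, and 3 of 17 had an unadjusted p under 0.05, beside 26.6% of all measured genes. The medians were 0.17 and 0.06. Nr2f2, a nuclear receptor of caudally derived interneurons and of other cells, fell in Het from 6.73 to 3.83 RPKM (q = 0.00135 in the authors' deposited table). KO at 5.96 RPKM was not called against WT (q = 0.483) and was higher than Het (q = 0.0123) in the authors' deposited tables. Dlx2, a homeobox gene of the ventral forebrain, rose in Het from 2.13 to 3.76 RPKM (q = 0.0165 in the authors' deposited table) and was listed at 2.40 in KO (q = 0.684). Sp8, a zinc finger gene of the same lineage, rose in Het from 0.447 to 1.06 RPKM (q = 0.00434 in the authors' deposited table). Its KO level of 0.316 RPKM was lower than in Het (q = 0.00517 in the authors' deposited table). Sp8 reached 1 RPKM in Het alone, so only its Het value brought it into the count. The authors' tables hold no test of Sp8 in KO against WT. Npas3, a neuronal basic helix-loop-helix gene, stood at 3.99, 3.66 and 5.16 RPKM in WT, Het and KO and passed in none (lowest q = 0.05003, KO against Het, in the authors' deposited table).

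Other subtype markers were called in 9 of 24 measured members in Het (3 higher, 6 lower) and 11 of 24 in KO (5 higher, 6 lower), beside 9.00% and 14.4% of all tested genes. Their medians were -0.15 and -0.08. Grin3a, an NMDA receptor subunit frequent in somatostatin cells, fell in Het from 12.3 to 8.47 RPKM (q = 0.00135) and rose in KO to 15.7 (q = 0.0355) in the authors' deposited tables. KO and Het differed 1.85-fold (q = 0.00517 in the authors' deposited table). Grin3a was thus lowest in Het, as Sst was, but unlike Sst it passed in all 3 comparisons. Cbln4, also a marker of somatostatin cells and named after its values were seen, fell in both mutants. It went from 6.14 RPKM in WT to 3.32 in Het (q = 0.00135) and 3.88 in KO (q = 0.00506) in the authors' deposited tables. Elfn1 (q = 0.327 and 0.552) and Nxph1 (q = 0.166 and 0.113) of the same list were called in neither mutant against WT. Lamp5, a membrane protein of neurogliaform and other cells, rose in both mutants. It went from 9.50 RPKM in WT to 20.4 in Het (q = 0.00135) and 17.2 in KO (q = 0.000987) in the authors' deposited tables. Ndnf, another marker of neurogliaform cells, was chosen after its values were seen. It was listed at 4.81 RPKM in WT, 4.58 in Het and 4.53 in KO (q = 0.897 and 0.782 in the authors' deposited tables). Tac1, the substance P precursor, which is also abundant in striatal projection neurons, rose from 11.9 RPKM to 33.1 in Het and 27.3 in KO (q = 0.00135 and 0.000987 in the authors' deposited tables). The remaining markers called higher, named after their values were seen, were Cxcl14 and Reln. Cxcl14 rose from 36.0 RPKM to 51.7 in Het and 59.5 in KO (q = 0.00135 and 0.000987 in the authors' deposited tables). Reln, at 14.1 RPKM in WT, was 16.9 in Het (q = 0.143) and rose to 18.5 in KO (q = 0.0146) in the authors' deposited tables.

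Among the same markers, chosen after their values were seen, Kcnc1 and Kcnc2 encode the potassium channels that let fast-spiking cells repolarize quickly. Kcnc1 was listed at 16.4 RPKM in WT, 13.8 in Het (q = 0.208) and 10.7 in KO (q = 0.000987) in the authors' deposited tables. Kcnc2 was listed at 15.3, 10.8 and 8.58 RPKM (q = 0.00135 and 0.000987 in the authors' deposited tables). Both fell in KO, as Pvalb did, with KO lowest and Het between. Erbb4, the neuregulin receptor of many parvalbumin cells, went from 3.33 RPKM in WT to 2.22 in Het and 2.18 in KO (q = 0.0240 and 0.00831 in the authors' deposited tables). Syt2, a vesicle protein of parvalbumin terminals, stood at 2.14, 2.84 and 2.89 RPKM and was called in neither (q = 0.258 and 0.125 in the authors' deposited tables), so not every marker of these cells was lower. Kcns3 at 2.09, 1.71 and 1.84 RPKM (q = 0.595 and 0.650) was not called either. The same held for Pthlh at 1.34, 1.36 and 1.23 RPKM (q = 0.988 and 0.876 in the authors' deposited tables). Calb2, or calretinin, which overlaps the Vip class, fell from 90.7 RPKM to 65.3 in Het and 71.0 in KO (q = 0.00135 and 0.0294 in the authors' deposited tables).

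**Figure D4:**
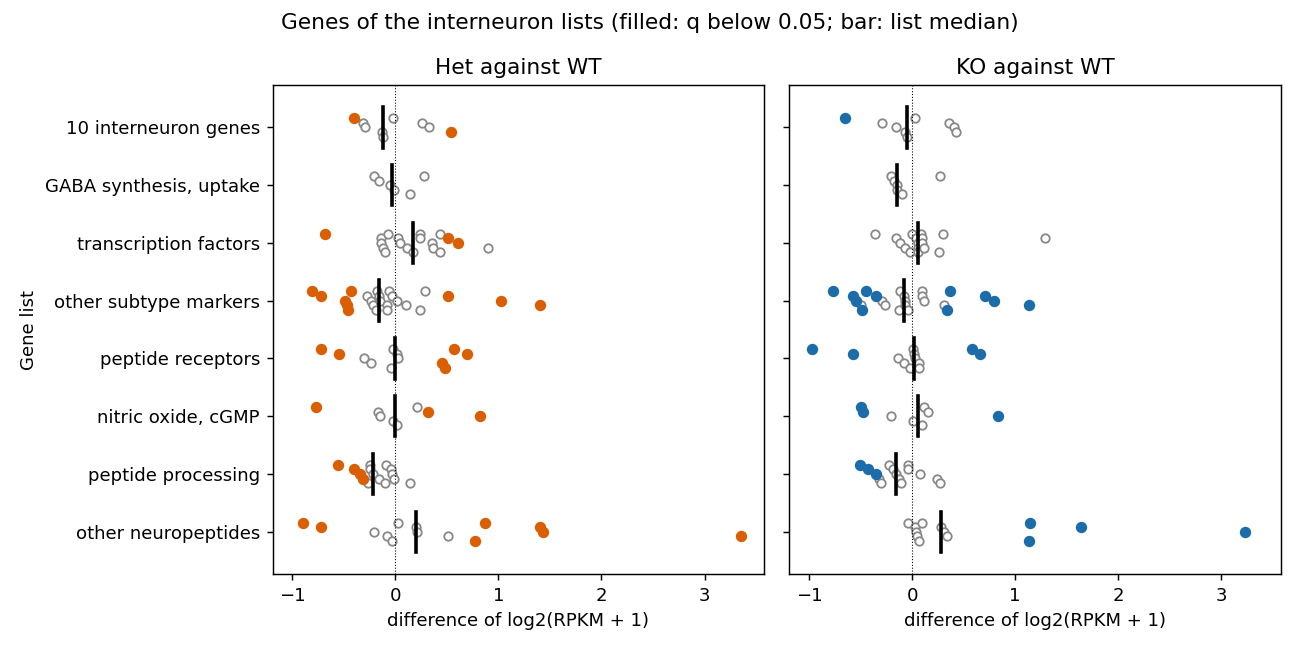
Difference of log2(RPKM + 1) for the measured and tested genes of 8 lists in Het against WT (left) and KO against WT (right), filled where q is below 0.05, with a bar at each list's median. Genes of the receptor and subtype lists lie on both sides of 0, none of the GABA synthesis and uptake genes is filled, and Penk is the far right point of the other neuropeptides in both panels.

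Genes of precursor processing and of dense-core vesicles fell or were not called against WT. Of 15 measured, 4 fell in Het and 3 in KO, none rose (5.06% and 7.68% of all tested genes fell), and the medians were -0.22 and -0.16. Pcsk1, a convertase that cuts precursors in dense-core vesicles, fell from 9.35 RPKM to 6.82 in Het (q = 0.0388) and 6.72 in KO (q = 0.0210) in the authors' deposited tables. Chgb, a granin of those vesicles, fell in KO from 231 to 162 RPKM (q = 0.000987), stood at 225 in Het (q = 0.940), and was lower in KO than in Het (q = 0.0355) in the authors' deposited tables. Cadps2, a vesicle release factor, fell in Het from 32.5 to 21.8 RPKM (q = 0.00135 in the authors' deposited table). KO was listed at 29.7 RPKM (q = 0.530 against WT and q = 0.0375 against Het in the authors' deposited tables). Ptprn, a dense-core vesicle membrane protein, fell in Het from 119 to 93.6 RPKM (q = 0.0335 in the authors' deposited table), and its KO value of 95.05 RPKM missed the threshold (q = 0.0662).

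Partners and targets of neuronal nitric oxide synthase were called in 3 of 8 measured genes in each mutant, beside 9.00% of all tested genes in Het and 14.4% in KO, and the other 5 were not. In Het 2 rose and 1 fell, and in KO 1 rose and 2 fell, with medians of 0.00 and 0.06. Nos1ap, an adaptor that binds the synthase, fell from 20.1 RPKM to 11.4 in Het (q = 0.00135) and 13.9 in KO (q = 0.00254) in the authors' deposited tables. Gucy1a3, a subunit of the guanylyl cyclase that senses nitric oxide, rose from 11.6 RPKM to 21.4 in Het and 21.5 in KO (q = 0.00135 and 0.000987 in the authors' deposited tables). Its partner subunit Gucy1b3 rose in Het from 64.4 to 80.4 RPKM (q = 0.0449) and was 69.1 in KO (q = 0.650) in the authors' deposited tables. Gucy1a2, another subunit, fell in KO from 8.17 to 5.58 RPKM (q = 0.000987 in the authors' deposited table) and was 7.27 in Het (q = 0.458). Striatal neurons are rich in this cyclase, and the values of striatal markers are given above. The part of striatal cells in the values of these subunits, which moved in both directions, was not tested.

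Neuropeptide precursors outside the 10 genes were read last. Tac1, given above, is also on this list. Of 14 measured in Het, 5 rose and 2 fell, and of 13 in KO, 4 rose and none fell, beside 9.00% and 14.4% of all tested genes called. Trh, 1 of the 5, was counted only through its Het value (0.460 RPKM in WT and 1.49 in Het). Penk, the enkephalin precursor, rose from 10.1 RPKM to 113 in Het and 103 in KO (q = 0.00135 and 0.000987 in the authors' deposited tables), and Pdyn, the dynorphin precursor, from 4.66 to 14.3 and 11.5 (the same q values). Both are peptides of striatal projection neurons, and their log2 differences of 3.36 and 1.44 in Het stand beside 0.54 for Npy. Nts, the neurotensin precursor, fell in Het from 12.99 to 7.51 RPKM (q = 0.00434) and rose in KO to 42.6 (q = 0.000987) in the authors' deposited tables. KO exceeded Het 5.66-fold for Nts (q = 0.00517 in the authors' deposited table).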

How the data were processed

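RNA was measured in cortex from 4 libraries each of 3 Mir137 genotypes. Libraries were made with TruSeq RNA v2 and sequenced from both ends, per the labels' protocols. Tools in the submitters' processing notes are TopHat2 2.0.13, Cuffdiff 2.2.1 and CASAVA 1.4, with build mm9. Their order and the gene annotation are not stated in these sources. The authors deposited 3 tables, in which, per the file headers, each genotype has 1 RPKM value. The deposited p-value and q-value of each gene are the authors' own. Where p was 1 the gene was taken as untested, and the q-values match a Benjamini-Hochberg adjustment over the rest. The authors' log2 column was left aside because some cells hold spreadsheet errors. Value columns without a genotype numbered 0.

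Calls are the authors' q below 0.05, since 1 value per genotype carries no spread for a test. Folds are ratios of RPKM, and log2 differences use a pseudocount of 1. A gene counted as measured at 1 RPKM in either genotype, a minimum that the shares of all tested genes called did not use. Values of the same genotype differed between tables by at most 0.691% for the 10 genes. The members and the 12 other lists were chosen with earlier results of these data known. From each list up to 4 genes are named, those called in the most comparisons and then by smallest p. Further receptors and subtype markers, Prox1, Trh and Chat were named after their values were seen. A rule naming the genes most alike applied only to members called in both mutants against WT, and there were 0. One gene that this rule names is not reported here. Markers of other cell types are given as lists. Sequences are from RefSeq (GRCm38.p6), and 3' UTRs from GENCODE M21 (GRCm38), joined by gene name. These builds differ from mm9, so no coordinate of the tables is given. Counting was tested on simulated data. Work used Python 3.11.15, numpy 2.4.6, pandas 2.3.3 and matplotlib 3.10.9.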

Additional observations from a re-analysis of the deposited data

Results flagged for a closer look

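For 9 named genes beside the 10 interneuron genes, the effects of the Het and KO genotypes differed in the authors' deposited table of KO against Het, and at least 1 mutant had passed against WT. KO exceeded Het for Nts (log2 difference 2.35), Grin3a (0.82), Tacr3 (0.74), Nr2f2 (0.53) and Cadps2 (0.43). Het exceeded KO for Sstr2 (-0.72), Npy2r (-0.67), Sp8 (-0.65) and Chgb (-0.47). Their q values in the authors' deposited table ran from 0.00517 to 0.0375. None of the 10 interneuron genes met this condition. Over all tested genes 1.87% were called in KO against Het. Named genes were picked for being called in the most comparisons, this one included, so the count of 9 is no measure of frequency. Glutamatergic, striatal, cholinergic, hippocampal and choroid plexus markers were not screened here. Of the 9, Sp8 reached 1 RPKM only in Het. No outlying library could be looked for, since the libraries of a genotype are pooled.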

How the results depend on the processing

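All 30 log2 differences of the 10 genes kept their sign with pseudocounts of 0.1 and 0.01 and with differences recentred on the median gene, which shifted them by less than 0.01. The counts of members called changed under 2 settings. With a minimum absolute log2 difference of 0.5, the count in Het against WT went from 2 to 1, since Sst lay under it. With q adjusted over the 3 tables together, the count in KO against Het went from 0 to 1, namely Sst. Counts for the lists changed by over 1.5 times as follows. At q below 0.01, receptors in Het went from 6 to 3 and subtype markers in KO from 11 to 7. At that threshold processing and dense-core vesicle genes went from 4 to 1 in Het, 3 to 1 in KO and 2 to 0 between mutants. Glutamatergic markers in KO went from 2 to 1 there, and choroid plexus markers between mutants from 3 to 1. Transcription factors between mutants went from 2 to 1 both at that threshold and at a minimum of 5 RPKM. At 5 RPKM transcription factors in Het went from 3 to 1, glutamatergic markers in KO from 2 to 1 and choroid plexus markers between mutants from 3 to 1, and no cholinergic marker was left (0, from 2 in Het and 1 elsewhere). Without a minimum, cholinergic markers in KO went from 1 to 2. The 135 calls over all lists became 109 at q below 0.01. No paired analysis was possible because the tables hold 1 pooled value per genotype, and for the same reason no library could be left out. Depth is unknown, which limits Chodl and other genes under 1 RPKM most.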
